A study of Mus musculus with 18 samples.

Results

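The 53 genes described here encode the machinery that copies DNA in S phase, from origin recognition to the joining of Okazaki fragments. They were chosen by gene symbol from the deposited count table, and 53 of 53 were found among its 21254 genes. The study compared mouse lung monocyte-derived macrophages with and without ezrin, an actin-membrane linker, by bulk RNA-seq of 18 libraries. Each of 3 sorted populations of each genotype gave 3 libraries, from 3 mice per genotype by the study's description, and the labels do not say which libraries share a mouse. The sort took CD45+ CD11b+ cells that were MHC-II- Ly6C+ (moM, monocyte-derived macrophages), MHC-II+ Ly6C+ (tnsIM, transitional interstitial macrophages, trIM in the labels) or MHC-II+ Ly6C- (matIM, mature interstitial macrophages). The flow cytometry scheme of the study took such cells from a CD11c- fraction with granulocytes set aside, a step that would remove CD11c+ alveolar macrophages and dendritic cells and that the sort markers in the labels do not list. That scheme prints matIMs as Ly6C+ MHC-II-, and the labels are followed here. All animals were adult C57BL/6 mice of both sexes and carried Cre recombinase under the Cx3cr1 promoter (B6.Cx3cr1tm1.1(cre)Jung/J). Ezr-KOm mice also carried floxed Ezr (Ezr fl/fl), and WT mice carried the Cre with intact Ezr. The Cx3cr1 promoter is also active at a lower level in conventional dendritic cells, eosinophils and NK cells, so the deletion is not limited to macrophages. Every mouse, WT included, had breathed nebulized Pseudomonas aeruginosa LPS, 12.5 mg in 5 ml of PBS over 15 min, and was sampled 24 h later, so no library stands for an uninflamed lung.

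DNA replication begins when the origin recognition complex, with Cdc6 and Cdt1, loads the ring of MCM proteins onto DNA. Cdc45 and GINS then turn the ring into an active helicase, primase and polymerase alpha lay down primers, and polymerases delta and epsilon extend them on the sliding clamp Pcna. Many genes of this machinery carry E2F sites in their promoters and are transcribed as cells enter S phase, while most tissue macrophages and recruited monocytes are outside the cell cycle.

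E2F proteins bind sequences close to TTTCCCGC, TTTGGCGC, TTTCGCGC and TTTGCCGC. Promoters of 45 of the 53 genes could be matched in RefSeq (build GRCm38.p6), each as a window of 300 bases from 250 before to 50 after a transcription start. An exact match to 1 of these 4 motifs, on either strand and with overlapping matches counted, stood in at least 1 window of 19 of the 45 genes (42.2%) and of 704 of all 27025 genes with a window (2.6%). In the comparison of populations described further on, it was found in 12 of 27 (44.4%) of those that were higher in WT matIMs than in WT moMs and in 7 of 18 (38.9%) of those that were not. A CCAAT box, on either strand, was found for 27 of the 45 (60%) and for 41.1% of all genes. The median GC content was 63% for the 45 genes and 53.3% for all genes, from the window of each gene richest in GC. The part of base content in the motif shares was not tested. The 250 bases before the start are printed for 4 genes with a match there and some of the largest differences between WT populations. Orc3, which had nearly the same level in all populations and also holds a match, is printed too. Prim1, Mcm2, Chaf1a and Lig1 hold no match in these bases. Their log2 fold changes were 2.49, 2.13, 2.10 and 2.02 for WT matIMs against moMs. Another window of Uhrf1 (chr17:56303087-56303336) holds none either. The printed bases are written in the direction of the gene, with the motif matches in capitals.
Uhrf1 (chr17:56304063-56304312, plus strand): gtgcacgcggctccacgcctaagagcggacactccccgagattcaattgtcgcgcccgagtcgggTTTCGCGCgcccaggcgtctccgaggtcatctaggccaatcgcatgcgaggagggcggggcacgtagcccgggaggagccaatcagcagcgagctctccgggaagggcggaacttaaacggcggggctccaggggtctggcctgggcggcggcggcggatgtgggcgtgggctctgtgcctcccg
Dtl (chr1:191575545-191575794, minus strand): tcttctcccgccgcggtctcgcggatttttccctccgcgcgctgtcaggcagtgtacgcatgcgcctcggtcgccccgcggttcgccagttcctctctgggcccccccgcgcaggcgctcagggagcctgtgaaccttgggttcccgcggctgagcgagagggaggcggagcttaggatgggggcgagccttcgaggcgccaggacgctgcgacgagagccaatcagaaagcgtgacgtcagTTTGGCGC
Mcm6 (chr1:128359706-128359955, minus strand): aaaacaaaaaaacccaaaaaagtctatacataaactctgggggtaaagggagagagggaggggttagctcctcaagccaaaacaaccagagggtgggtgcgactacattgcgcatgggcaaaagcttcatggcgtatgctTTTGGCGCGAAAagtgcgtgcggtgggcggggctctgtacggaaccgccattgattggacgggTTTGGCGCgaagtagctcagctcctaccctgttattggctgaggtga
Mcm5 (chr8:75109259-75109508, plus strand): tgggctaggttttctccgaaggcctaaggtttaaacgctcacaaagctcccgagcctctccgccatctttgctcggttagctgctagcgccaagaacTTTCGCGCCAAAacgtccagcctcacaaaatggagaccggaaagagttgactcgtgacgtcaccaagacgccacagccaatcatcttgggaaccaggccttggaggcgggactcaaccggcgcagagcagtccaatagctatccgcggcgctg
Orc3 (chr4:34614943-34615192, minus strand): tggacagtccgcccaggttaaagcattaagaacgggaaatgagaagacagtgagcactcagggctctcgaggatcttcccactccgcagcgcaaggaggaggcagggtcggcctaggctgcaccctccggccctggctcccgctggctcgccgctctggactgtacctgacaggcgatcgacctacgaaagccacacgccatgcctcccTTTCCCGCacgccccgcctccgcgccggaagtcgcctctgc
In Mcm6, 3 matches were found, of which the upstream pair overlaps. In Mcm5, 2 matches were found, which overlap. A match describes these letters only and does not show that a factor was bound.

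Library totals ranged from 16512783 to 48460995 counts, and all 53 genes passed the filter on low counts that left 15811 genes for testing. Levels are given as CPM (counts per mega-read, with library sizes scaled by TMM), and tests are edgeR quasi-likelihood F-tests with Benjamini-Hochberg adjustment over the 15811 genes, in which "called" means an adjusted p below 0.05. Ezr itself was at 531 ± 53.6 CPM in WT and 231 ± 63.7 in Ezr-KOm moMs, 586 ± 83.8 and 191 ± 57.4 in tnsIMs, and 661 ± 70.0 and 135 ± 37.4 in matIMs (mean ± SD, n = 3 each). The log2 fold changes of Ezr were -1.20 (adjusted p = 0.0549), -1.62 (adjusted p = 0.00365) and -2.29 (adjusted p = 7.73e-05), so Ezr RNA remained detectable in every Ezr-KOm group and its difference just missed the threshold in moMs. The labelled populations were checked against marker lists. The summed level of 5 MHC class II genes was 5322 ± 806 CPM in WT moMs, 40243 ± 15965 in tnsIMs and 50462 ± 8689 in matIMs, in the order of the gates. The 11 macrophage and monocyte genes summed to 40355 ± 3750, 26751 ± 5052 and 14683 ± 998 CPM. All 11 had estimates below 0 for WT matIMs against WT moMs, and 8 of 11 were called lower. In the same libraries 8 dendritic cell markers summed to 93.1 to 139 CPM in WT moMs, 172 to 408 in tnsIMs and 2502 to 3544 in matIMs. Of these 8 markers 6 were called higher in WT matIMs than in WT moMs, and 8 of 8 B cell markers were, with sums of 11.9 to 17.4, 53.8 to 82.8 and 196 to 277 CPM. Jchain, a plasma cell gene, was at 0.512, 0.539 and 0.512 CPM in WT moMs, 23.4, 49.5 and 42.4 in tnsIMs and 317, 457 and 294 in matIMs. The 5 plasma cell markers that include Jchain summed to 805 ± 76.7, 759 ± 199 and 931 ± 113 CPM. The list as a whole therefore did not rise as Jchain did. The 8 epithelial markers summed to 133 ± 18.4, 3314 ± 808 and 563 ± 22.8 CPM, and the 7 alveolar macrophage markers to 5997 ± 667, 1343 ± 229 and 577 ± 70.1 CPM. Endothelial and fibroblast sums were also highest in tnsIMs, at 362 ± 82.7 and 105 ± 5.26 CPM. Neutrophil sums were 459 ± 18.9, 487 ± 97.1 and 287 ± 38.97 CPM, and T and NK cell sums stayed between 39.4 and 63.3 CPM. The part of these cells in the differences between populations was not tested. In bulk libraries a change in the share of cells that express a gene and a change in RNA per cell cannot be told apart.

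**Figure D1:**
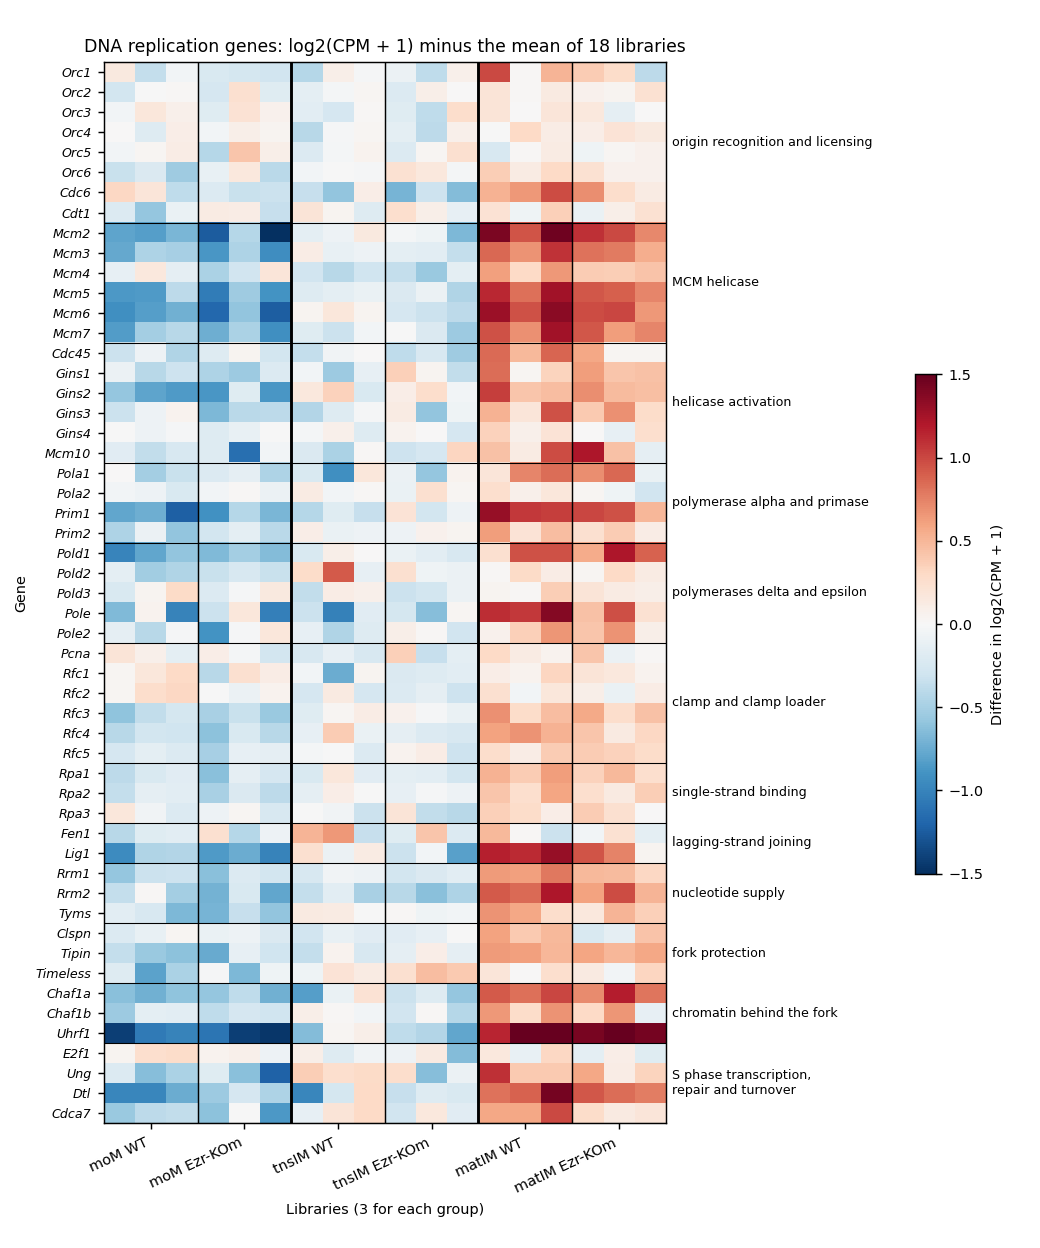
Difference of log2(CPM + 1) from the mean of 18 libraries for each of the 53 genes (y axis, ordered by role) in each library (x axis, 3 libraries a group), with colours cut at ±1.5. The matIM columns are red for the MCM helicase, Prim1, Lig1, Rrm2, Chaf1a and Uhrf1, while most origin recognition genes, Pcna, Rfc1, Rfc2 and E2f1 stay pale across all 18 libraries.

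The first comparison asked how the machinery differed between the populations of WT mice. Of the 53 genes, 33 were called higher in matIMs than in moMs and 0 lower, where 13.4% of all tested genes were called higher and 11.4% lower. Between matIMs and tnsIMs, 25 were called higher and 0 lower, against 8.32% and 10.2% of all genes. Between tnsIMs and moMs, 12 were called higher and 0 lower, against 13.0% and 8.61% of all genes. DESeq2 called 34, 26 and 15 of the 53. The shares of all genes above are from edgeR, and none was counted for DESeq2. The median log2 fold change of the 53 genes was 0.94 for matIMs against moMs, 0.63 for matIMs against tnsIMs and 0.22 for tnsIMs against moMs, where the medians over all tested genes were 0.01, 0.04 and 0.01. These comparisons share libraries, so their counts are not independent of each other.

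**Figure D2:**
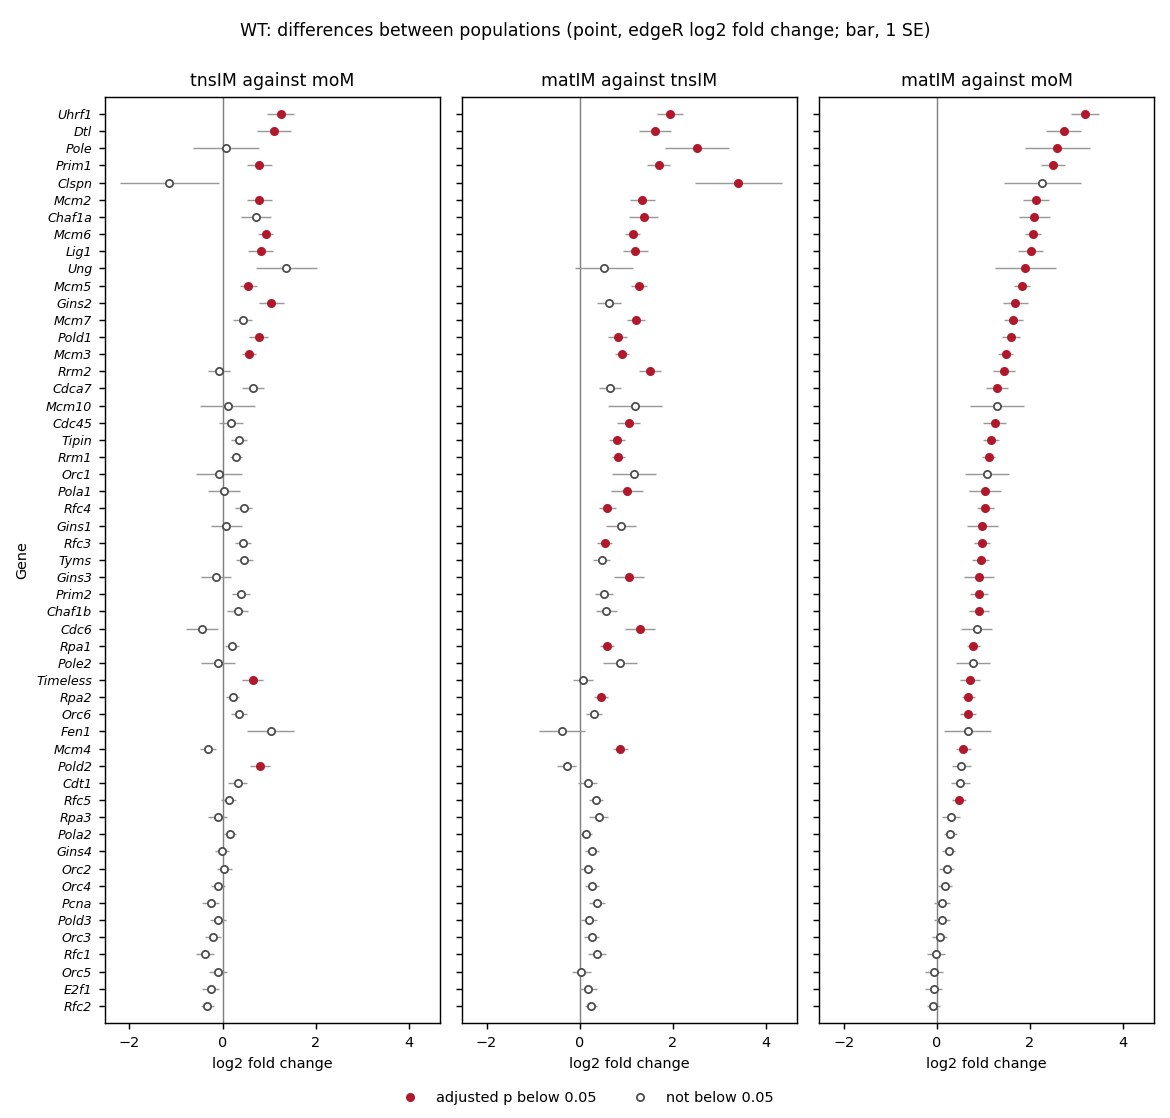
edgeR log2 fold change of each of the 53 genes (points; bars, 1 SE) between WT populations, in 3 panels with genes in the same order. Filled red points have an adjusted p below 0.05: 12 for tnsIM against moM, 25 for matIM against tnsIM and 33 for matIM against moM, all to the right of 0.

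The levels of single libraries show the same order. Every WT matIM library was above every WT moM library for 41 of the 53 genes, compared with 22.2% of all tested genes, and above every WT tnsIM library for 39, compared with 16.2%. Every WT tnsIM library was above every WT moM library for 23 of the 53, compared with 19.6% of all genes, so this step stood much closer to the background. For 20 of the 53 genes the libraries rose at both steps without overlap (3.41% of all genes), and for 36 every matIM library exceeded the other 6 WT libraries (10.6% of all genes). Among the 33 genes called between matIMs and moMs, the median share of the log2 difference already reached in tnsIMs was 36.4%. The range ran from -55.2% for Mcm4, which was lowest in tnsIMs, to 90.6% for Timeless, and 4 genes exceeded 50%.

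Origin recognition and licensing had few calls. Of 8 genes, 1 was called higher in WT matIMs than in WT moMs (Orc6, 0.68 ± 0.17 on the log2 scale, ± SE, adjusted p = 0.00628) and 1 in matIMs than in tnsIMs (Cdc6, a loader of the MCM ring, 1.29 ± 0.33, adjusted p = 0.00896). The call of Orc6 was lost without WT moM replicate 3 (adjusted p = 0.059) and that of Cdc6 without WT matIM replicate 3 (adjusted p = 0.052). Orc3, a core subunit of the origin recognition complex (ENSMUSG00000040044, chr4:34570796-34614944, minus strand, GRCm39, as for all gene positions given in this form), had the highest CPM of the group. Its CPM in the 3 libraries of each WT group were 46.8, 54.4 and 50.8 in moMs, 42.9, 40.3 and 48.7 in tnsIMs and 55.3, 48.3 and 54.6 in matIMs. The moM and matIM libraries overlapped, and the log2 fold change between them was 0.06 ± 0.16 (adjusted p = 0.844). The other genes of the origin complex gave 0.21 (Orc2), 0.17 (Orc4) and -0.07 (Orc5), with Orc1 at 1.08 ± 0.47, which is based on 13 to 71 counts a library and was not called. Cdt1, the partner of Cdc6, was at 0.50 ± 0.20 (adjusted p = 0.0788). An exon of Akirin2 on the opposite strand overlaps 32.9% of the exon length of Orc3, and since the library kit does not mark strand, reads there cannot be told apart.

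In the MCM helicase, the ring that unwinds DNA ahead of the fork, all 6 subunits were called higher in WT matIMs than in both WT moMs and WT tnsIMs, and 4 of 6 (Mcm2, Mcm3, Mcm5 and Mcm6) were called higher in tnsIMs than in moMs. The call of Mcm4 between matIMs and moMs was lost without WT moM replicate 1 or 3 or WT matIM replicate 1 or 3 (adjusted p up to 0.0927). Summed over the 6 subunits, the level was 153 ± 11.9 CPM in WT moMs, 207 ± 3.94 in tnsIMs and 439 ± 65.9 in matIMs (n = 3 each). Mcm6 (ENSMUSG00000026355, chr1:128259327-128287401, minus strand) was at 26.02, 27.8 and 30.1 CPM in WT moMs, 51.6, 56.7 and 51.6 in tnsIMs and 123, 98.2 and 129 in matIMs. The 3 groups did not overlap, and the lowest matIM library was well above the highest tnsIM library. The log2 fold changes of Mcm6 were 0.93 ± 0.17 (adjusted p = 5.83e-04) for tnsIMs against moMs, 1.13 ± 0.17 (adjusted p = 6.47e-05) for matIMs against tnsIMs and 2.06 ± 0.17 (adjusted p = 5.53e-08) for matIMs against moMs.

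Mcm5 (ENSMUSG00000005410, chr8:75836197-75855067, plus strand) was at 14.4, 14.5 and 20.3 CPM in WT moMs, 23.4, 24.2 and 24.96 in tnsIMs and 59.9, 48.5 and 66.1 in matIMs. The larger step was again the second, 1.27 ± 0.18 (adjusted p = 3.77e-05), against 0.56 ± 0.18 (adjusted p = 0.0304) for the first, whose call was lost without moM replicate 1 or 2 or any of the 3 tnsIM libraries (adjusted p up to 0.117). Mcm3 (ENSMUSG00000041859, chr1:20873192-20890536, minus strand) was at 30.7, 37.8 and 36.9 CPM in moMs, 57.03, 48.8 and 50.1 in tnsIMs and 96.4, 84.4 and 113 in matIMs, with no overlap between the populations and a log2 fold change of 1.48 ± 0.16 between matIMs and moMs (adjusted p = 1.05e-06). Mcm4 was the exception at the first step: its mean was 48.98 ± 5.82 CPM in WT moMs, 39.5 ± 2.01 in tnsIMs and 72.4 ± 9.50 in matIMs. Although the subunits form a ring with 1 copy of each, their RNA levels per exon length were unequal. In WT moMs the mean ran from 1.66 RPKM (CPM per kilobase of exon) for Mcm2 to 9.16 for Mcm4, and in WT matIMs from 6.30 for Mcm7 to 21.5 for Mcm6, so the order of the subunits was not kept. These lengths merge all annotated exons of a gene, which may differ from the RNA present, so levels of different genes are only roughly comparable. A processed copy of Mcm7, Gm5487, is 97.68% identical to it and holds 28 counts over all libraries.

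**Figure D3:**
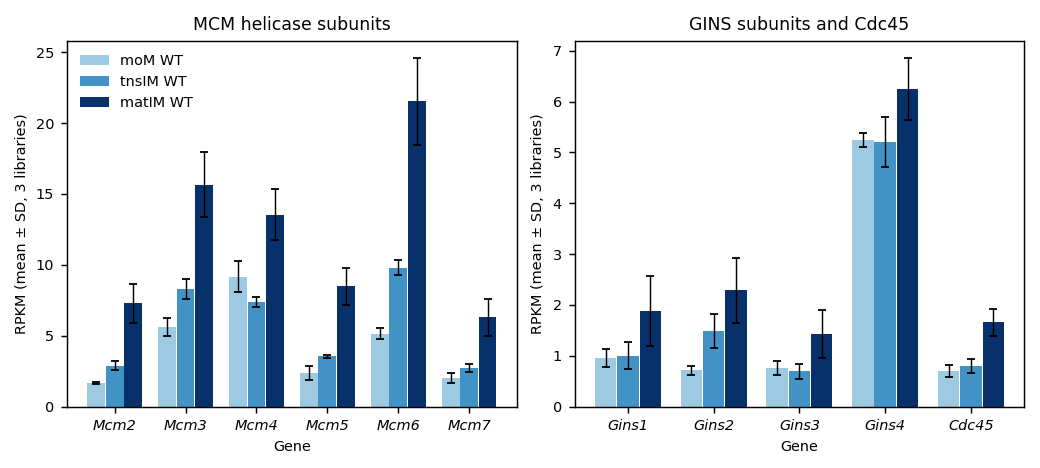
RPKM (mean ± SD, n = 3) of the 6 MCM helicase genes (left) and of the 4 GINS genes with Cdc45 (right) in WT moM, tnsIM and matIM, with separate y axes. Every MCM gene is highest in matIM, Mcm6 reaching 21.5 RPKM, and Gins4 stands above the other GINS genes in every population.

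Helicase activation was split. Cdc45, Gins1, Gins2 and Gins3 were called higher in WT matIMs than in WT moMs, while Gins4 and Mcm10 were not. Of these calls that of Gins1 was lost under 11 of 27 alternatives (adjusted p up to 0.259, without WT matIM replicate 1) and that of Gins3 under 14 of 27 (adjusted p up to 0.223, without WT matIM replicate 3), among them each WT moM library left out. Gins2 (ENSMUSG00000031821, chr8:121305372-121316043, minus strand), a subunit of the GINS complex that joins MCM and Cdc45, was at 3.36, 2.78 and 2.64 CPM in WT moMs, 6.30, 7.29 and 4.58 in tnsIMs and 12.4, 7.73 and 7.97 in matIMs. Its libraries did not overlap at either step, with log2 fold changes of 1.05 ± 0.27 (adjusted p = 0.00977) for tnsIMs against moMs and 1.68 ± 0.27 (adjusted p = 1.45e-04) for matIMs against moMs. An exon of Gse1 on the opposite strand covers 67.3% of the exon length of Gins2, so its level is uncertain. Gins4 (ENSMUSG00000031546, chr8:23716632-23727675, minus strand), a subunit of the same complex, was at 26.8, 25.5 and 26.6 CPM in moMs, 26.3, 28.4 and 23.5 in tnsIMs and 34.5, 28.4 and 31.1 in matIMs. Its matIM libraries lay above its moM libraries, by 0.25 ± 0.14 on the log2 scale (adjusted p = 0.216). Per exon length Gins4 was at 5.24 ± 0.137 RPKM in WT moMs, while Gins1, Gins2 and Gins3 were at 0.955, 0.714 and 0.761. Whether the difference between populations varied among the subunits was not tested.

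Of the primase and polymerase alpha genes, Pola1, Prim1 and Prim2 were called higher in WT matIMs than in moMs, and Pola2 was not. The call of Pola1 was lost without WT moM replicate 2 or 3 or WT matIM replicate 2 or 3 (adjusted p up to 0.128). Prim1 (ENSMUSG00000025395, chr10:127851037-127865906, plus strand), the catalytic subunit of primase, was at 2.33, 2.44 and 1.46 CPM in WT moMs, 3.25, 4.06 and 3.49 in tnsIMs and 13.2, 10.98 and 10.7 in matIMs. The 3 populations did not overlap, and matIMs exceeded moMs by 2.49 ± 0.26 on the log2 scale (adjusted p = 9.94e-07). Pola2 (ENSMUSG00000024833, chr19:5990570-6014230, minus strand), the regulatory subunit of polymerase alpha, was at 31.2, 30.6 and 27.4 CPM in moMs, 35.04, 31.4 and 32.7 in tnsIMs and 38.7, 34.00 and 36.4 in matIMs. Its matIM libraries lay above its moM libraries, by 0.29 ± 0.13, which was not called (adjusted p = 0.121) except with library totals (adjusted p = 0.0468).

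Of the 5 genes of polymerases delta and epsilon, Pold1 and Pole, the catalytic subunits, were called higher in WT matIMs than in moMs. Pold1 (ENSMUSG00000038644, chr7:44182170-44198273, minus strand) was at 13.6, 15.8 and 18.2 CPM in WT moMs, 23.7, 29.8 and 28.1 in tnsIMs and 33.2, 54.9 and 55.00 in matIMs, a log2 fold change of 1.59 ± 0.20 (adjusted p = 8.33e-06) between the outer populations. Pole was much lower, at 0.512, 1.49 and 0.197 CPM in WT moMs and 4.17, 4.02 and 5.22 in WT matIMs, from 3 to 140 counts a library. Pold2 (ENSMUSG00000020471, chr11:5822180-5828292, minus strand), an accessory subunit of polymerase delta, behaved differently, at 23.6, 17.98 and 18.9 CPM in WT moMs, 31.7, 50.2 and 23.9 in tnsIMs and 26.6, 32.04 and 28.4 in matIMs. Its highest library was a tnsIM library, and it was called in tnsIMs against moMs (0.80 ± 0.21, adjusted p = 0.00907) but not in matIMs against moMs (0.53 ± 0.21, adjusted p = 0.0727). Without WT tnsIM replicate 2, the library at 50.2 CPM, the first call was lost (0.50, adjusted p = 0.0661) and the second was made (0.52, adjusted p = 0.0227), as it was without WT tnsIM replicate 3 (0.50, adjusted p = 0.0424), with library totals and with only the groups compared. Pold3 (ENSMUSG00000030726, chr7:99731318-99770772, minus strand), a further accessory subunit, overlapped between all 3 populations at 32.96, 40.03 and 47.5 CPM in moMs, 29.9, 42.1 and 41.03 in tnsIMs and 39.99, 39.2 and 50.6 in matIMs.

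Pcna (ENSMUSG00000027342, chr2:132091082-132095234, minus strand), the sliding clamp and a common proliferation marker, had the highest level per exon length of the 53 genes and did not follow the helicase. Its CPM was 91.9, 84.3 and 72.6 in WT moMs, 67.6, 73.4 and 67.4 in tnsIMs and 98.9, 87.1 and 83.3 in matIMs. The moM and matIM libraries overlapped, with a log2 fold change of 0.11 ± 0.18 (adjusted p = 0.695) and means of 34.6 ± 4.07 and 37.4 ± 3.38 RPKM. A processed copy, Pcna-ps2, is 99.23% identical over its 781 bases and holds 264 counts over all libraries, so reads of this gene could be divided between the pair. Of the 5 clamp loader genes, Rfc3, Rfc4 and Rfc5 were called higher in WT matIMs than in moMs (0.97, 1.04 and 0.48 on the log2 scale), whereas Rfc1 and Rfc2 were at -0.01 and -0.08. Of these calls that of Rfc5 was lost on leaving out any 1 of 9 libraries, among them each WT moM library (adjusted p up to 0.119). Exons of Wsb2 overlap 41.4% of Rfc5 on the opposite strand, and exons of Lat2 overlap 24.3% of Rfc2.

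Replication protein A coats single-stranded DNA at the fork. Rpa1 (ENSMUSG00000000751, chr11:75188992-75239150, minus strand), its large subunit, was at 49.4, 55.4 and 57.95 CPM in WT moMs, 55.2, 73.6 and 57.99 in tnsIMs and 93.6, 85.1 and 101 in matIMs, with overlap at the first step and none at the second (0.58 ± 0.15, adjusted p = 0.00744). The latter call was lost without WT tnsIM replicate 1, WT tnsIM replicate 3 or WT matIM replicate 3 (adjusted p up to 0.0595). Rpa2 was also called in matIMs against moMs (0.68), and Rpa3 was at 0.30 and not called. Lig1 (ENSMUSG00000056394, chr7:13011239-13045350, plus strand), the ligase that seals Okazaki fragments, was at 3.07, 4.72 and 4.76 CPM in moMs, 8.30, 6.40 and 7.56 in tnsIMs and 16.7, 16.1 and 18.4 in matIMs. Its 3 populations did not overlap, and matIMs exceeded moMs by 2.02 ± 0.27 (adjusted p = 1.74e-05). Fen1, the flap nuclease that acts just before the ligase, was low and variable, at 0.626, 0.912 and 0.945 CPM in moMs, 2.09, 2.41 and 0.705 in tnsIMs and 2.04, 1.20 and 0.745 in matIMs, and was not called. Exons of Gm10143 on the opposite strand overlap 59% of the exon length of Fen1, so its level is uncertain.

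The genes of nucleotide supply were called higher in WT matIMs than in moMs in 3 of 3 cases. Rrm1 (ENSMUSG00000030978, chr7:102090902-102118978, plus strand), the large subunit of ribonucleotide reductase, was at 19.98, 24.03 and 24.4 CPM in WT moMs, 25.5, 29.3 and 28.8 in tnsIMs and 47.97, 47.1 and 53.4 in matIMs. Rrm2 (ENSMUSG00000020649, chr12:24758240-24764145, plus strand), the small subunit whose level is limiting for the enzyme in S phase, was at 4.55, 6.17 and 3.98 CPM in moMs, 4.55, 5.39 and 4.08 in tnsIMs and 12.5, 11.8 and 15.5 in matIMs. The moM and tnsIM libraries of Rrm2 overlapped, and all of the difference lay at the second step (1.51 ± 0.24, adjusted p = 1.30e-04, against -0.08 ± 0.24, adjusted p = 0.857, at the first). Tyms, thymidylate synthase, differed by 0.94 ± 0.19 between matIMs and moMs (adjusted p = 9.30e-04).

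Fork protection factors hold the helicase and polymerases together when the fork stalls. Tipin (ENSMUSG00000032397, chr9:64188863-64212706, plus strand) was at 13.3, 11.4 and 10.9 CPM in WT moMs, 13.3, 17.9 and 14.4 in tnsIMs and 27.5, 26.96 and 24.9 in matIMs, a log2 fold change of 1.16 ± 0.17 for matIMs against moMs (adjusted p = 5.85e-05). Its partner Timeless had most of its difference at the first step: 7.17, 4.35 and 5.75 CPM in WT moMs, 7.97, 9.83 and 9.17 in tnsIMs and 9.62, 8.42 and 10.2 in matIMs. Its call between matIMs and moMs was lost without WT moM replicate 2 or 3 or WT matIM replicate 1 or 3 (adjusted p up to 0.141). Clspn, the checkpoint adaptor claspin, had the largest estimate between WT matIMs and tnsIMs (3.41 ± 0.93, adjusted p = 0.0139), from 0 to 19 counts a library, and just missed the threshold against moMs (adjusted p = 0.0511). Without WT tnsIM replicate 1 the former was at 2.78 (adjusted p = 0.0716).

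Behind the fork, Chaf1a and Chaf1b deposit histones and Uhrf1 passes DNA methylation to the new strand, and all 3 were called higher in WT matIMs than in moMs. Uhrf1 (ENSMUSG00000001228, chr17:56610321-56630486, plus strand) was at 1.94, 2.73 and 2.91 CPM in WT moMs, 3.96, 6.98 and 7.29 in tnsIMs and 16.2, 21.6 and 31.6 in matIMs. The populations did not overlap, and its log2 fold change of 3.18 ± 0.30 (adjusted p = 2.68e-07) between matIMs and moMs was the largest of the 53 genes. Chaf1a differed by 2.10 ± 0.32 (adjusted p = 8.53e-05), with 51% of its exon length overlapped by Ubxn6 on the opposite strand.

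Of the last 4 genes, Dtl, Ung and Cdca7 were called higher in WT matIMs than in moMs and E2f1 was not. E2f1 (ENSMUSG00000027490, chr2:154401327-154411812, minus strand), a transcription factor of S phase genes, was at 22.5, 26.2 and 26.7 CPM in WT moMs, 23.3, 18.96 and 20.9 in tnsIMs and 24.6, 20.2 and 27.3 in matIMs. The moM and matIM libraries overlapped, with a log2 fold change of -0.07 ± 0.18 (adjusted p = 0.838). Dtl (ENSMUSG00000037474, chr1:191269468-191307656, minus strand), which directs the removal of Cdt1 once replication has begun, was at 0.968, 0.953 and 1.30 CPM in moMs, 0.959, 2.22 and 3.76 in tnsIMs and 5.81, 6.15 and 9.43 in matIMs. Its tnsIM libraries spread from the moM level to well above it, and matIMs exceeded moMs by 2.72 ± 0.37 (adjusted p = 2.26e-05). Ung, a uracil-DNA glycosylase, differed by 1.89 ± 0.66 and Cdca7, a chromatin factor, by 1.29 ± 0.24 on the log2 scale. The call of Ung was lost on leaving out any 1 of 12 libraries, among them each WT moM library (adjusted p up to 0.174).

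**Figure D4:**
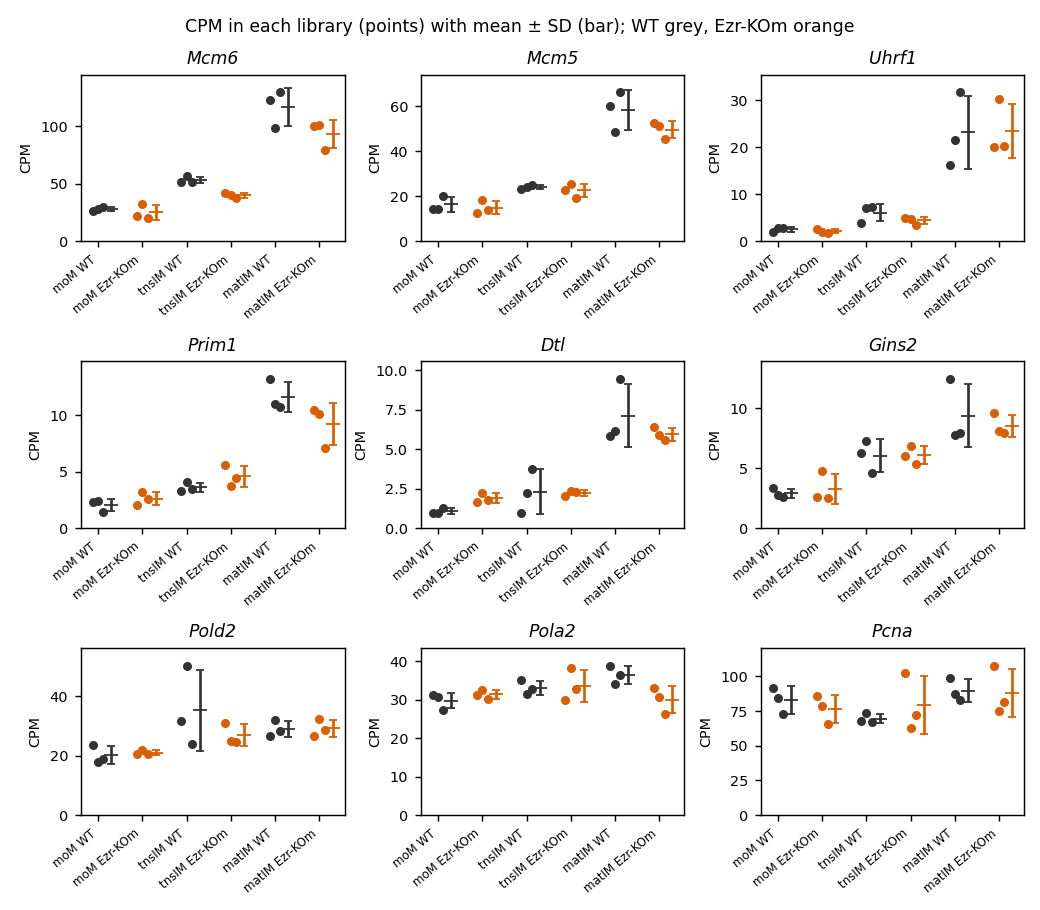
CPM of 9 genes in each library (points) with mean ± SD (bars, n = 3) by population and genotype, WT in grey and Ezr-KOm in orange, each panel with its own y axis from 0. Mcm6, Mcm5, Uhrf1, Prim1, Dtl and Gins2 are highest in matIMs of both genotypes, Pold2 has 1 high WT tnsIM library at 50.2 CPM, and the populations overlap for Pcna in Ezr-KOm mice.

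The calls at the first step moved with single libraries. Between WT tnsIMs and WT moMs, the 12 calls became 6 without moM replicate 1 and 7 each without moM replicate 2, moM replicate 3, tnsIM replicate 2 or tnsIM replicate 3. Mcm6, Uhrf1, Pold1 and Gins2 kept an adjusted p below 0.05 there without any single library, while Mcm2, Mcm3, Mcm5, Prim1, Pold2, Lig1, Timeless and Dtl did not. The counts between matIMs and the other populations of WT mice moved by less than 1.5 times under every alternative that was run, from 25 to 38 against moMs and from 18 to 30 against tnsIMs.

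The same populations were compared within Ezr-KOm mice. Of the 53 genes, 30 were called higher in Ezr-KOm matIMs than in Ezr-KOm moMs and 0 lower, against 12.5% and 10.7% of all tested genes. Between matIMs and tnsIMs 19 were called higher and 0 lower, against 8.37% and 9.85% of all genes. Between tnsIMs and moMs 9 were called higher and 0 lower (Mcm2, Mcm3, Mcm5, Mcm6, Gins2, Prim1, Tyms, Timeless and Uhrf1), against 9.23% and 5.04% of all genes. DESeq2 called 31, 20 and 10 of the 53, again without a share of all genes. Median log2 fold changes were 0.80 for matIMs against moMs, 0.56 for matIMs against tnsIMs and 0.24 for tnsIMs against moMs. The last count again rested on single libraries, with 0 calls without moM replicate 3, 1 without tnsIM replicate 1, 2 without tnsIM replicate 2 and 3 without moM replicate 1. It was 2 when only the groups compared were in the model.

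In Ezr-KOm mice the MCM genes summed to 136 ± 20.8 CPM in moMs, 181 ± 11.3 in tnsIMs and 372 ± 29.9 in matIMs. Mcm6 was at 21.6, 32.9 and 20.7 CPM in Ezr-KOm moMs, 41.97, 40.04 and 38.02 in tnsIMs and 99.9, 101 and 79.6 in matIMs, again without overlap between populations (1.90 ± 0.17 for matIMs against moMs, adjusted p = 1.36e-07). Uhrf1 was at 2.65, 1.93 and 1.85 CPM in moMs, 4.99, 4.77 and 3.56 in tnsIMs and 20.04, 30.2 and 20.2 in matIMs, and its log2 fold change between matIMs and moMs of 3.45 ± 0.30 (adjusted p = 1.14e-07) was the largest of the 53 in this genotype too. Pcna was at 85.9, 78.4 and 65.98 CPM in moMs, 103, 62.98 and 72.5 in tnsIMs and 107, 75.1 and 81.2 in matIMs, with overlap between all populations. Orc3, at 42.4, 56.3 and 50.2 CPM in moMs, 42.4, 36.7 and 58.2 in tnsIMs and 53.6, 43.7 and 48.2 in matIMs, and E2f1, at 22.6, 22.98 and 20.6 CPM in moMs, 20.6, 24.02 and 13.6 in tnsIMs and 19.5, 23.5 and 19.1 in matIMs, overlapped likewise.

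The next comparison asked whether the loss of Ezr changed these genes within a population. No gene of the 53 passed the adjusted threshold in moMs, tnsIMs or matIMs with edgeR, where 0.171%, 0.164% and 0.152% of all tested genes did, and DESeq2 also called 0 in each. At an unadjusted p below 0.05 the count was 1 in moMs (Dtl), 1 in tnsIMs (Mcm6) and 4 in matIMs (Cdc45, Cdca7, Lig1 and Pola2), against 3.74%, 3.24% and 3.84% of all genes. DESeq2 gave 1, 2 and 4. When the replicate number entered the model as a block, the 3 counts became 1, 2 and 6. For DESeq2 and this block, the shares of all genes at this threshold were not counted. By the rule of the study, an unadjusted p below 0.05 with a log2 fold change beyond 0.75 in either direction, 1 gene was called in moMs (Dtl), 0 in tnsIMs and 0 in matIMs, against 2.51%, 1.83% and 2.40% of all genes. In matIMs the replicate block gave 1 by this rule (Clspn).

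These small counts moved with single libraries. In moMs the count by the rule of the study was 0 without WT replicate 1, WT replicate 2 or Ezr-KOm replicate 3, and 2 without WT replicate 3 (Cdc6 and Dtl). In tnsIMs it was 1 without Ezr-KOm replicate 2 (Lig1). In matIMs it was 2 without Ezr-KOm replicate 1 (Cdc45 and Lig1) and 1 without Ezr-KOm replicate 3 (Clspn).

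**Figure D5:**
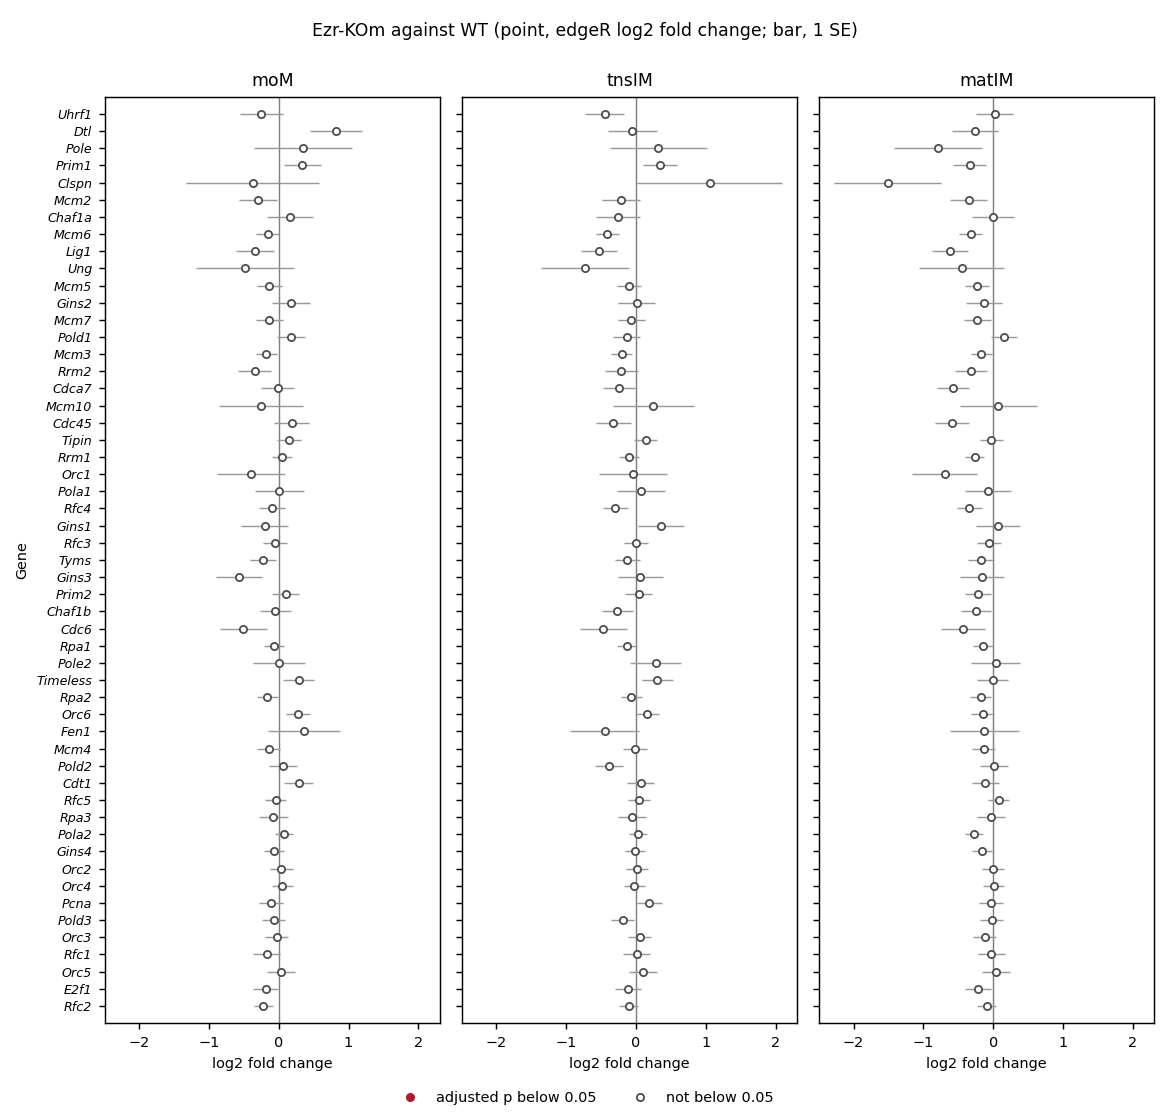
edgeR log2 fold change of each of the 53 genes (points; bars, 1 SE) between Ezr-KOm and WT in moM, tnsIM and matIM, in the gene order of the population panels. No point is filled, since no adjusted p was below 0.05, and in matIM 44 of 53 points lie left of 0.

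The estimates leaned to lower values in Ezr-KOm matIMs. There, 44 of the 53 estimates were below 0, with a median log2 fold change of -0.15, where the median over all tested genes was 0.00 and 49.8% of them were above 0. In moMs and tnsIMs 32 and 32 of the 53 were below 0, with medians of -0.06 and -0.05. With single libraries left out, the number below 0 ranged from 37 to 46 in matIMs, 29 to 38 in moMs and 29 to 36 in tnsIMs. The genes were measured in the same libraries, so these counts are not counts of independent events. Every Ezr-KOm matIM library was below every WT matIM library for 7 of the 53 genes (Cdca7, Lig1, Pola2, Pole, Prim1, Rfc4 and Rrm1) and above for 0, where 5.12% of all genes were below and 5.03% above. In tnsIMs 3 were below (Mcm3, Mcm6 and Rfc4) and 1 above (Timeless), where 2.76% of all genes were below and 3.05% above. In moMs 1 was below (Gins3) and 1 above (Dtl), against 4.07% and 4.45% of all genes. In matIMs the epithelial marker sum was also lower in Ezr-KOm (342 to 485 CPM) than in WT libraries (537 to 579 CPM), without overlap. The macrophage and monocyte sum was lower there too, at 13538 to 15368 CPM in WT and 12290 to 13458 in Ezr-KOm, without overlap. In moMs the fibroblast marker sum was higher in Ezr-KOm libraries, at 26.9 to 40.99 CPM in WT and 49.6 to 61.03 in Ezr-KOm. The part of these sums in the estimates was not tested.

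By role, the MCM helicase leaned one way. All 6 MCM estimates were below 0 in each of the 3 populations, with medians of -0.15 in moMs, -0.15 in tnsIMs and -0.23 in matIMs. This sign held under TMM, upper-quartile, library-total and DESeq2 scaling, all of which keep every library. The libraries of the genotypes overlapped for every MCM gene except Mcm3 and Mcm6 in tnsIMs. Mcm4 in tnsIMs was at 40.8, 37.2 and 40.4 CPM in WT and 38.9, 33.5 and 45.1 in Ezr-KOm libraries. Without Ezr-KOm replicate 2, its Ezr-KOm mean would lie above the WT mean. None of the 18 estimates was called. The MCM sum was 153 ± 11.9 CPM in WT and 136 ± 20.8 in Ezr-KOm moMs, 207 ± 3.94 and 181 ± 11.3 in tnsIMs, and 439 ± 65.9 and 372 ± 29.9 in matIMs. The 4 primase and polymerase alpha genes had estimates above 0 in moMs and tnsIMs and below 0 in matIMs (median -0.24), apart from 1 of the 4 that fell below 0 in moMs with DESeq2. The 3 replication protein A genes were below 0 in each population, with medians from -0.15 to -0.06.

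Mcm6 was at 51.6, 56.7 and 51.6 CPM in WT and 41.97, 40.04 and 38.02 in Ezr-KOm tnsIMs, with no overlap. The log2 fold change was -0.41 ± 0.17 (unadjusted p = 0.0221, adjusted p = 1). In matIMs the values were 123, 98.2 and 129 CPM in WT and 99.9, 101 and 79.6 in Ezr-KOm libraries, which overlapped (-0.32 ± 0.16), and in moMs 26.02, 27.8 and 30.1 CPM in WT and 21.6, 32.9 and 20.7 in Ezr-KOm libraries, which overlapped as well (-0.16 ± 0.17).

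Dtl went the other way in moMs, at 0.968, 0.953 and 1.30 CPM in WT and 1.65, 2.24 and 1.81 in Ezr-KOm libraries. All 3 Ezr-KOm values were above the WT values, with a log2 fold change of 0.82 ± 0.37 (unadjusted p = 0.0418, adjusted p = 1), from 17 to 58 counts a library in these 6. In tnsIMs the values were 0.959, 2.22 and 3.76 CPM in WT and 2.04, 2.37 and 2.29 in Ezr-KOm libraries (-0.05 ± 0.35) and in matIMs 5.81, 6.15 and 9.43 CPM in WT and 6.38, 5.88 and 5.58 in Ezr-KOm libraries (-0.26 ± 0.33), with overlap in both.

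In matIMs, Lig1 was at 16.7, 16.1 and 18.4 CPM in WT and 14.1, 12.1 and 7.09 in Ezr-KOm libraries, without overlap, the Ezr-KOm libraries being the more spread. Its log2 fold change was -0.62 ± 0.26 (unadjusted p = 0.0264, adjusted p = 0.9999), with -0.53 ± 0.26 in tnsIMs and -0.34 ± 0.27 in moMs. Cdca7 was at 13.2, 13.2 and 17.96 CPM in WT and 10.5, 9.43 and 9.77 in Ezr-KOm matIMs (-0.58 ± 0.23, unadjusted p = 0.0216). Cdc45 was at 7.76, 5.81 and 7.90 CPM in WT and 6.27, 3.99 and 3.98 in Ezr-KOm libraries, with overlap (-0.59 ± 0.25, unadjusted p = 0.027). Prim1 was at 13.2, 10.98 and 10.7 CPM in WT and 10.4, 10.1 and 7.09 in Ezr-KOm libraries (-0.34 ± 0.24), and Rrm1 at 47.97, 47.1 and 53.4 CPM in WT and 42.8, 42.8 and 37.98 in Ezr-KOm libraries (-0.27 ± 0.14), both without overlap. The adjusted p was 0.9999 for Cdca7, 0.9999 for Cdc45, 0.9999 for Prim1 and 0.9999 for Rrm1.

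Pola2 and Pold2, subunits of polymerases alpha and delta, were not called between genotypes. Pola2 was at 38.7, 34.00 and 36.4 CPM in WT and 32.99, 30.8 and 26.3 in Ezr-KOm matIMs, without overlap, a log2 fold change of -0.28 ± 0.13 (unadjusted p = 0.0488, adjusted p = 0.9999). In tnsIMs it was at 35.04, 31.4 and 32.7 CPM in WT and 29.96, 38.2 and 32.8 in Ezr-KOm libraries (0.03 ± 0.13), and in moMs at 31.2, 30.6 and 27.4 CPM in WT and 31.3, 32.6 and 30.3 in Ezr-KOm libraries (0.08 ± 0.13). Pold2 was at 31.7, 50.2 and 23.9 CPM in WT and 31.2, 25.1 and 24.6 in Ezr-KOm tnsIMs, where 1 WT library at 50.2 CPM sets the estimate of -0.39 ± 0.20 (unadjusted p = 0.0761, adjusted p = 1). Left out, that library takes the estimate to -0.05. In moMs Pold2 was at 23.6, 17.98 and 18.9 CPM in WT and 20.5, 21.9 and 20.6 in Ezr-KOm libraries (0.06 ± 0.21) and in matIMs at 26.6, 32.04 and 28.4 CPM in WT and 26.7, 32.3 and 28.6 in Ezr-KOm libraries (0.01 ± 0.20), with overlap in both.

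The remaining genes with library values above showed smaller or mixed genotype differences. Rrm2 was at 12.5, 11.8 and 15.5 CPM in WT and 9.79, 13.00 and 9.14 in Ezr-KOm matIMs (-0.32 ± 0.23), Mcm5 at 59.9, 48.5 and 66.1 CPM in WT and 52.3, 51.1 and 45.2 in Ezr-KOm libraries (-0.23 ± 0.17) and Mcm3 at 96.4, 84.4 and 113 CPM in WT and 93.4, 90.96 and 77.3 in Ezr-KOm libraries (-0.17 ± 0.15). All 3 overlapped between genotypes. Pold1 was higher on average in Ezr-KOm matIMs, at 33.2, 54.9 and 55.00 CPM in WT and 41.6, 65.8 and 52.2 in Ezr-KOm (0.16 ± 0.19), and Uhrf1, Tipin, Gins2 and Rpa1 differed by 0.02, -0.03, -0.13 and -0.15. The libraries of both genotypes overlapped for these 5 genes.

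Whether the genotype difference itself varied between populations was tested as an interaction. No gene of the 53 was called in any of the 3 interactions by edgeR, as 0% of all tested genes were. At an unadjusted p below 0.05 the edgeR counts were 0 for tnsIMs against moMs, 2 for matIMs against moMs (Cdc45 and Dtl) and 0 for matIMs against tnsIMs, where 1.47%, 1.70% and 1.16% of all genes passed. With the replicate block the last pair of counts became 4 and 2. The interaction estimates were -0.78 ± 0.35 for Cdc45 (adjusted p = 0.9999) and -1.08 ± 0.50 for Dtl (adjusted p = 0.9999). DESeq2 called 0 in each as well.

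Other genes of the cell cycle were counted from lists that hold none of the 53. Of 38 other replication genes, 22 were called higher and 2 lower (Samhd1 and Rnaseh2c) in WT matIMs than in WT moMs, 17 higher and 0 lower in matIMs than in tnsIMs, and 3 higher and 1 lower in tnsIMs than in moMs. Shares of all genes called higher and lower were 13.4% and 11.4%, 8.32% and 10.2%, and 13.0% and 8.61%. For tnsIMs against moMs the counts of the 38 lie below their shares. Of 20 genes of mitosis, 11 were called higher in matIMs than in moMs and 15 higher than in tnsIMs, above these shares. In tnsIMs against moMs 0 of them were called higher and 2 lower (Aurkb and Kif23), and the latter count lies near its share. Medians of the mitosis genes were 1.56, 1.69 and -0.21 on the log2 scale. Top2a, which untangles chromosomes before division, was at 4.04, 4.81 and 3.39 CPM in WT moMs, 3.25, 4.12 and 4.11 in tnsIMs and 10.9, 14.01 and 11.7 in matIMs (1.58 ± 0.24 for matIMs against moMs, adjusted p = 8.23e-05). The proliferation marker Mki67 was at 22.6, 17.8 and 21.2 CPM in moMs, 17.2, 13.3 and 29.3 in tnsIMs and 28.1, 28.9 and 26.8 in matIMs and was not called between matIMs and moMs (0.45 ± 0.24, adjusted p = 0.193).

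Of 21 regulators of S phase entry, 6 were called higher and 1 lower (E2f2) in WT matIMs than in WT moMs, 7 higher and 0 lower in matIMs than in tnsIMs, and 2 higher and 3 lower in tnsIMs than in moMs. All-gene shares for these comparisons were 13.4% and 11.4%, 8.32% and 10.2%, and 13.0% and 8.61%, so that the last counts lie near the background. The D cyclins start the passage into S phase. Ccnd2 was at 125, 99.9 and 121 CPM in WT moMs, 283, 231 and 271 in tnsIMs and 809.8, 752 and 691 in matIMs (adjusted p = 4.35e-09 for matIMs against moMs). Ccnd1 was at 16.1, 7.13 and 10.4 CPM in WT moMs, 32.1, 19.7 and 30.2 in tnsIMs and 77.02, 67.6 and 59.5 in matIMs (2.61 ± 0.47, adjusted p = 4.04e-04). The remaining D cyclin, Ccnd3, did not rise at both steps. It was at 201, 273 and 281 CPM in WT moMs, 115, 213 and 151 in tnsIMs and 253, 326 and 297 in matIMs, and its moM and matIM libraries overlapped. In Ezr-KOm matIMs Ccnd1 was at 63.03, 36.3 and 41.1 CPM and Ccnd2 at 911, 724 and 687, both overlapping WT. Trp53, the checkpoint factor p53, was at 63.2, 77.03 and 83.2 CPM in moMs, 85.7, 92.1 and 85.3 in tnsIMs and 91.1, 88.3 and 88.5 in matIMs of WT mice. In Ezr-KOm mice it was at 72.9, 72.2 and 68.3 CPM in moMs, 77.99, 74.5 and 74.01 in tnsIMs and 76.8, 78.7 and 74.4 in matIMs. Every Ezr-KOm library was below every WT library for Trp53 in tnsIMs and in matIMs, while the moM libraries overlapped. Trp53 was not called between genotypes. Pkmyt1, a kinase that holds back entry into mitosis, was at 14.1, 11.4 and 14.6 CPM in WT and 6.49, 9.74 and 6.08 in Ezr-KOm matIMs, without overlap, but was not called (-0.85 ± 0.28, adjusted p = 0.773). In Ezr-KOm mice, matIMs against moMs gave 20 higher and 2 lower of the 38 other replication genes, 13 higher and 0 lower of the 20 mitosis genes and 6 higher and 1 lower of the 21 regulators. Among all tested genes 12.5% were called higher and 10.7% lower there. No gene of these 3 lists was called between genotypes in any population. The summed level of the mitosis genes was 71.3 ± 4.21 CPM in WT and 74.6 ± 8.59 in Ezr-KOm moMs, 61.1 ± 9.71 and 70.2 ± 3.49 in tnsIMs, and 116 ± 5.29 and 122 ± 14.3 in matIMs, with overlapping libraries in each population. Within the list, estimates for moMs, tnsIMs and matIMs were 0.33, 0.41 and 0.40 for Mki67 and -0.49, -0.29 and -0.22 for Top2a, and the list medians were -0.00, -0.11 and -0.04.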

How the data were processed

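Bulk RNA-seq measured 18 libraries of sorted lung cells, 3 for each of 3 populations and 2 genotypes, grouped by the labels. Full-length cDNA was amplified with SMART-Seq v4 and fragmented with Nextera XT, a kit that does not mark strand, and the submitters' processing notes name FastQC, STAR 2.7.9a and edgeR. The deposited values are raw counts per gene, which the authors obtained by aligning to GRCm39 with a Gencode annotation, and the count setting for strand is not given in the sources used here. The study's text describes the libraries of a group as biological replicates from 3 mice per genotype, while the labels tie no library to a mouse, so the model without a block treats libraries that may share a mouse as independent. Column names were matched to sample labels, and 0 columns were left over.

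The tests were run in R 4.3.3 with edgeR 4.0.16. Genes were kept by filterByExpr with a smallest count of 10, scaled by TMM and fitted in a single quasi-likelihood model of 6 groups and 18 libraries, from which all comparisons were taken as two-sided F-tests with Benjamini-Hochberg adjustment over all genes tested. The rule of the study, an unadjusted p below 0.05 with an absolute log2 fold change above 0.75, was counted beside it. DESeq2 1.42.0 was an alternative, as were upper-quartile scaling, library totals, other filters on low counts, a replicate block, only the groups compared and each library left out. Scripts were tested on simulated data. RPKM used the merged exons of all transcripts of a gene in a later Gencode annotation of the same build, so comparisons between genes are rough. Near-identical copies were sought with BLAST+ 2.17.0 (at least 90% identity over 80% of a copy of 300 bases or more). Figures used matplotlib 3.10.9 in Python 3.11.15.

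Libraries of both genotypes with the same number in the labels deviated together from their group means (9 pairs, r from 0.102 to 0.316). For 18 pairs with different numbers r was -0.238 to 0.0508. Deviations from a group mean cancel within the group, so the latter range is not independent of the former. The labels do not state a pairing, and the replicate number entered only as a block in alternative models.

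Values in every library are given for Pold2 and Pola2, for genes called between genotypes, for the 5 called genes with the smallest p in each WT population comparison and for the gene with the highest CPM of each role. A few others, such as Fen1, Pole, Timeless, Cdc45, Cdca7 and Rrm2, were added after their values were seen where they were not already among these. The 53 genes and the other lists were chosen with earlier results of these data known.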

Additional observations from a re-analysis of the deposited data

How the results depend on the processing

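No gene of the 53 was called between genotypes, or in an interaction, by adjusted p under any alternative that was run. The calls between populations of WT mice ranged from 25 to 38 for matIMs against moMs, from 18 to 30 for matIMs against tnsIMs and from 6 to 17 for tnsIMs against moMs, and in Ezr-KOm mice from 23 to 32 and from 15 to 23 for the first pair of comparisons. With single libraries left out, tnsIMs against moMs gave 6 to 13 calls in WT and 0 to 10 in Ezr-KOm mice, and the latter gave 2 when only the groups compared were in the model, where a smaller number of libraries estimates the spread. By the rule of the study, the count in moMs was 0 with library totals only and 0 to 2 with single libraries left out, in tnsIMs 0 to 1 with single libraries left out, and in matIMs 1 with the replicate block, 1 with only the groups compared (Pole) and 0 to 2 with single libraries left out. With the replicate number as a block, the population comparisons gave 14, 35 and 28 calls in WT and 11, 31 and 23 in Ezr-KOm mice (tnsIMs against moMs, matIMs against moMs, matIMs against tnsIMs). Calls over all 15811 genes rose as well, from 3411, 3926 and 2926 to 4572, 4883 and 3654 in WT mice. In Ezr-KOm mice they rose from 2257, 3679 and 2881 to 3185, 4625 and 3696. The correlation of same-numbered libraries between populations of a genotype was 0.0905 to 0.397 (18 pairs). For 36 such pairs with different numbers it was -0.295 to 0.0316, a range that is not independent of the former. With genotype and number as the block, taken as a mouse, the population comparisons gave 14, 35 and 30 calls in WT and 11, 30 and 22 in Ezr-KOm mice. Over all genes the calls with this block were 4747, 5002 and 3773 in WT and 3403, 4783 and 3861 in Ezr-KOm mice. The interactions at an unadjusted p below 0.05 gave 0, 2 and 1 of the 53 with it.

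Estimates near 0 changed sign. For tnsIMs against moMs in WT mice, Mki67 was at -0.0353 and became 0.0498 with upper-quartile scaling, 0.0487 with library totals and 0.0128 with at least 10 counts in every library. Leaving out single libraries gave -0.397 to 0.198 for Mki67 and -0.217 to 0.0516 for Top2a. For matIMs against moMs in WT mice, E2f1 was at -0.0672 and became 0.0328 with library totals, and leaving out single libraries gave -0.177 to 0.0144 for E2f1, -0.0323 to 0.0882 for Orc3, -0.00347 to 0.164 for Pcna and -0.0521 to 0.211 for Pold3. Between genotypes the same gave -0.0774 to 0.0984 for Pola2 in tnsIMs, -0.00919 to 0.181 for Pold2 in moMs and -0.0696 to 0.0982 for Pold2 in matIMs, and for Pold2 in WT matIMs against tnsIMs -0.546 to 0.0251. The median over all tested genes shifted to 0.108 with upper-quartile scaling for tnsIMs against moMs in WT mice, and with library totals to 0.111 in WT and 0.132 in Ezr-KOm mice for matIMs against moMs. The cause of these changes was not tested. Clspn (0 to 19 counts a library), Ung (0 to 90), Pole (3 to 140) and Mcm10 (4 to 136) are limited by depth.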
